A study of Mus musculus with 6 samples.

Results

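H19, Cdkn1c, Meg3, Rian, Grb10, Peg3, Mest, Plagl1, Ndn and Sgce are imprinted genes that are active in tissues growing after birth, and their counts were compared between adipocytes with and without an adipocyte-specific deletion of Lats1 and Lats2. They were picked by symbol from a table of 37384 gene symbols. All 10 were in the table and all 10 were among the 15674 genes with enough counts to be tested. The libraries were made from inguinal subcutaneous white adipose tissue (scWAT) of male mice at postnatal day 7, digested with collagenase and floated to collect the adipocytes. L1L2-FF mice carried floxed alleles of Lats1 and Lats2 without Cre, and L1L2-AKO littermates carried the same floxed alleles together with Adipoq-Cre, in which the adiponectin promoter drives the recombinase in adipocytes. There were 3 libraries of each genotype, and each was a pool of 4 mice. No label gives the parent of origin of an allele, and the counts do not separate the 2 parental copies.

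Imprinted genes are transcribed mainly from the copy inherited from 1 parent, and many lie in clusters controlled by a stretch of DNA that is methylated on the chromosome from only 1 parent. H19, Cdkn1c, Meg3, Rian and, outside the brain, Grb10 are read from the maternal copy. Peg3, Mest, Plagl1, Ndn and Sgce are read from the paternal copy. Several paternally expressed genes favour growth, with Igf2 as the best known example, and several maternally expressed genes restrain it, but genes of both kinds depart from this. Many are abundant before birth and are switched down in the first weeks of life, and Mest, Dlk1 and Plagl1 are known from studies of fat cell formation and fat pad growth. Lats1 and Lats2 are kinases of the Hippo pathway that keep the coactivators YAP and TAZ out of the nucleus, where these act through TEAD factors.

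Meg3 and Rian lie 62.94 kb apart on chromosome 12, on the same strand of a cluster that starts with Dlk1, and their counts moved together, so the sequences at their starts are shown. Each is a RefSeq promoter window of GRCm38.p6 (the build also called mm10), 250 bases before and 50 bases after the start, on the plus strand. Capitals mark GGAATG, the core of the TEAD motif, in Rian, and TGACGTCA, the cAMP response element, in Meg3.

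Meg3, chr12:109540746-109541045: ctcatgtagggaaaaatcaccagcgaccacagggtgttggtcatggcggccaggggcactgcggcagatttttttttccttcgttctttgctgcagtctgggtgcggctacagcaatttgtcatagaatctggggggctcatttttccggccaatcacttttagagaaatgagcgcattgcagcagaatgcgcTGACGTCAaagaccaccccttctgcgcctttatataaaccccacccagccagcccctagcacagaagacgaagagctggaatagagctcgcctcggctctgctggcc

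Rian, chr12:109603695-109603994: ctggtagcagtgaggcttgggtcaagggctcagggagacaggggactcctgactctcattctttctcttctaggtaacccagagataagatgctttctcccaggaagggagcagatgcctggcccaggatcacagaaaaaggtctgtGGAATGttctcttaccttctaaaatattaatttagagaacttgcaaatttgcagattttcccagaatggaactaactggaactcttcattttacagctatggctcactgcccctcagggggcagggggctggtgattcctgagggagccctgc

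The printed Meg3 window held TGACGTCA 57 bases before the start, 13 CpG sites and no TEAD core on either strand. RefSeq has another Meg3 window further into the gene, chr12:109545148-109545447, which held 1 CpG site and none of the motifs and is not printed. In the Rian window the TEAD core began 103 bases before the start, and there was no CpG site, where the median of all windows was 7. GGAATG or its complement CATTCC was found in 14.7% of 32851 promoter windows of the same length, so 1 match is common. TGACGTCA, which reads the same on both strands and was looked for after the window had been seen, was in 1.79% of them. Windows were at hand for 7 of the 10 genes, 11 windows in all. The Peg3 window held both of these and also GGGGGCCCC, a motif of the factor that Plagl1 encodes, which was in 0.405% of all windows; its matches did not overlap. A match is a description of letters and says nothing about binding.

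H19, Meg3, Rian and Mest are also hosts of miRNAs. For the 3 maternally expressed hosts, 4 of the mature miRNAs are shown from RefSeq GRCm38.p6 to show what these transcripts carry, with the seed (bases 2 to 8) in capitals.

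miR-675-5p in H19, chr7:142577112-142577133, minus strand: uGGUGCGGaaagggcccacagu

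miR-770-5p in Meg3, chr12:109563710-109563731, plus strand: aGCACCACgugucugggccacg

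miR-341-3p in Rian, chr12:109611556-109611576, plus strand: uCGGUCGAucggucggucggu

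miR-370-3p in Rian, chr12:109618305-109618326, plus strand: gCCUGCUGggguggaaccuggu

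Of the 12 mature miRNAs of the 6 hairpins that RefSeq places in these 4 hosts, no pair shared a seed. These libraries were not taken as a measure of mature miRNAs, so the values given for the hosts are values of the long transcripts only.

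Total counts per library ranged from 30548473 to 32107917. Lats1 fell by 1.04 on the log2 scale (SE 0.118, n = 3 per genotype, edgeR adjusted p 0.00131), from 82.9 ± 9.90 (SD) to 40.2 ± 1.16 CPM (counts scaled to a common library size with TMM factors). Lats2 went against the label, at 76.4 ± 8.68 CPM in L1L2-FF and 119 ± 20.6 CPM in the libraries labelled L1L2-AKO (log2 fold change 0.64, SE 0.156, edgeR adjusted p 0.0278). That call was lost without L1L2-FF replicate 1 (log2 fold change 0.62, adjusted p 0.10) or 3 (0.57, 0.0651), or without L1L2-AKO replicate 2 (0.60, 0.104) or 3 (0.55, 0.0946), in fits with 1 library fewer and a fold change of similar size. A whole-gene count cannot show loss of the floxed exons alone, and 41.2% of the 50-base stretches of Lats2 also occur in the annotated gene Gm49361. By quantitative PCR, the paper reports lower Lats1 and Lats2 mRNA in L1L2-AKO than in L1L2-FF adipocytes of this depot and age. Of 10 markers of mature adipocytes all were detected. Their summed level was 12100 to 13590 CPM in L1L2-FF and 5405 to 7252 CPM in the L1L2-AKO libraries. With edgeR 5 of them fell (Adipoq, Cfd, Retn, Slc2a4 and Cidea). At an unadjusted p under 0.05, and with DESeq2 after adjustment, 8 were lower and 0 were higher. Among all tested genes, edgeR called 9.28% higher and 7.18% lower. All 10 macrophage markers rose, and their sum went from 251 to 497 CPM in L1L2-FF to 945 to 1057 CPM. Schwann cell markers summed to 494, 1284 and 804 CPM in L1L2-FF replicates 1 to 3 and to 160 to 406 CPM in L1L2-AKO, and 4 of 6 fell. In a bulk sample, fewer cells of a type and less RNA per cell cannot be told apart.

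Cdkn1c, Meg3 and Rian were higher in the L1L2-AKO libraries, and none of the 10 genes was lower, with edgeR's quasi-likelihood test and an adjusted p under 0.05. All 3 belong to the 5 maternally expressed genes, and 0 of the 5 paternally expressed genes passed the test. At an unadjusted p under 0.05, and also with DESeq2 after adjustment, 1 gene was lower (H19) and 1 paternally expressed gene was higher (Plagl1). Over all tested genes 9.28% were higher and 7.18% were lower. The libraries of the genotypes did not overlap for 5 of the 10 genes, 4 of them higher (Cdkn1c, Meg3, Rian and Plagl1) and 1 lower (H19), where 36.4% of all tested genes did not overlap. The median log2 fold change was 0.49 over the 10 genes and -0.02 over all tested genes. With 10 genes these counts describe the group, and whether maternally and paternally expressed genes differ was not tested.

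**Figure D1:**
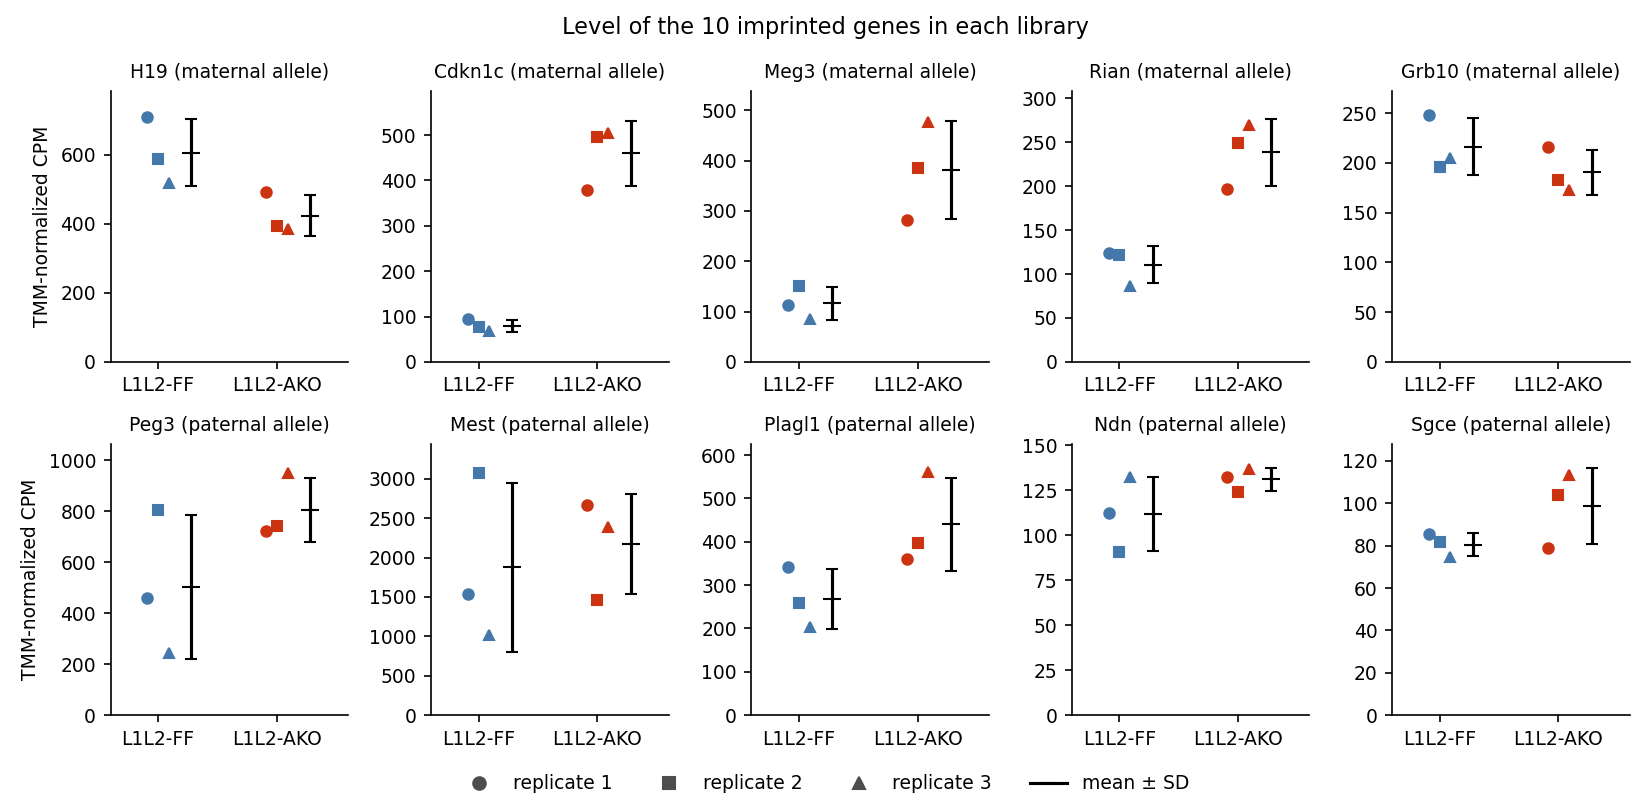
Level of each of the 10 genes in TMM-normalized CPM (vertical axes, each starting at 0) in the 3 L1L2-FF libraries (blue) and the 3 libraries labelled L1L2-AKO (red), with the replicate shown by the shape of the point and the mean ± SD by the black bar. Cdkn1c, Meg3, Rian and Plagl1 lie higher in every L1L2-AKO library, H19 lies lower in every one, and the L1L2-FF points of Peg3 and Mest spread more than those of the other genes.

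Cdkn1c, which encodes an inhibitor of cyclin-dependent kinases that takes cells out of the cycle, had the largest difference of the 10 genes. Its level was 94.6, 76.2 and 68.0 CPM in L1L2-FF replicates 1 to 3 and 378, 497 and 505 CPM in L1L2-AKO replicates 1 to 3. Every L1L2-AKO library was far above every L1L2-FF library. This was a log2 fold change of 2.53 (SE 0.183, 95% CI 2.11 to 2.95, n = 3 per genotype), a 5.78-fold difference, with an edgeR adjusted p of 0.000303. The gene lies at chr7:143458339-143461050 on the minus strand. An antisense transcript, Gm44732, covers 30.7% of its exon length and is not a row of the table. The strand setting of the counting is not given in the sources used here, so reads of the antisense transcript could be included.

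Because Cdkn1c acts on the cell cycle, proliferation genes are given beside it. None of 15 passed the edgeR test in either direction, though the fitted change was above 0 for all 15, with a median of 0.24 (log2). At an unadjusted p under 0.05, 1 was higher, and DESeq2 called 0. Their summed level was 780, 342 and 843 CPM in L1L2-FF and 997, 780 and 548 CPM in L1L2-AKO. The genotypes overlapped, and L1L2-FF replicate 2 was the lowest library.

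H19, a long non-coding RNA, starts 882.9 kb from Cdkn1c on the same chromosome, at chr7:142575529-142578143 on the minus strand. Its level was 709.7, 587 and 518 CPM in L1L2-FF and 492, 392 and 385 CPM in L1L2-AKO. Every L1L2-AKO library was below every L1L2-FF library, but the difference did not pass the test (log2 fold change -0.52, SE 0.172, 95% CI -0.91 to -0.12, n = 3 per genotype, edgeR adjusted p 0.0788). DESeq2 called it, at an adjusted p of 0.0277.

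Igf2, the paternally expressed growth factor gene that shares its enhancers with H19, starts 88.67 kb away. It had 723, 575 and 493 CPM in L1L2-FF and 532, 399.6 and 378 CPM in L1L2-AKO. The genotypes overlapped, and the log2 fold change of -0.45 (SE 0.198) did not pass the test (edgeR adjusted p 0.166). Counts of H19 and Igf2, not corrected for length, were close to equal in every library. The ratio of H19 counts to Igf2 counts was 0.982, 1.02 and 1.05 in L1L2-FF and 0.924, 0.982 and 1.02 in L1L2-AKO, a log2 difference of -0.06 between the genotypes (exact permutation test, two-sided p 0.3, n = 3 per genotype). Of the Igf2 stretches of 50 bases, 62.1% also occur in other annotated genes, nearly all in Gm49394, a model that is not a row of the table.

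Of the listed neighbours of H19 and Cdkn1c, Igf2 included, 8 had enough counts for the test and 1 of them passed it. Among all tested genes 9.28% were higher and 7.18% lower. DESeq2 called 2 of the 8, both higher. The genotypes did not overlap for 3 of the 8, all higher (Osbpl5, Cd81 and Tssc4), beside 36.4% of all tested genes. Osbpl5, which encodes an oxysterol-binding protein relative, rose from 34.1 ± 1.46 to 64.5 ± 11.8 CPM (SD, n = 3 per genotype; log2 fold change 0.92, SE 0.143, edgeR adjusted p 0.00474). Phlda2, a placental growth gene next to Cdkn1c, had 0 counts in every L1L2-FF library and at most 3 counts in an L1L2-AKO library, so no fold change is given.

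The maternally expressed RNAs of the Dlk1-Meg3 cluster rose together. Meg3, a long non-coding RNA at chr12:109541001-109571726 on the plus strand, had 113, 151 and 85.3 CPM in L1L2-FF and 282, 386 and 477 CPM in L1L2-AKO. All 3 L1L2-AKO libraries were above all 3 L1L2-FF libraries. On the log2 scale the difference was 1.71 (SE 0.257, 95% CI 1.12 to 2.30, n = 3 per genotype), a 3.27-fold difference, with an edgeR adjusted p of 0.00402. A lincRNA on the opposite strand, Gm26906, takes up 6.79% of its exon length.

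Rian is the snoRNA and miRNA host further along the same strand, at chr12:109603940-109661716. It had 124, 122 and 86.6 CPM in L1L2-FF and 196, 249 and 270.1 CPM in L1L2-AKO. The genotypes did not overlap, and the log2 fold change was 1.11 (SE 0.183, 95% CI 0.69 to 1.53, n = 3 per genotype; edgeR adjusted p 0.00593). Mirg, a miRNA host that starts 125.8 kb after Rian, was scarcer than both. It rose from 4.59 ± 0.870 to 9.48 ± 0.839 CPM (log2 fold change 1.05, SE 0.194, edgeR adjusted p 0.00959).

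Dlk1, the paternally expressed protein gene of the cluster, encodes a membrane protein that holds back fat cell formation and starts 88.18 kb before Meg3. Its level was 157, 154 and 96.3 CPM in L1L2-FF and 96.4, 82.4 and 67.4 CPM in L1L2-AKO. L1L2-FF replicate 3 and L1L2-AKO replicate 1 were almost equal, so the genotypes overlapped narrowly. The log2 fold change of -0.73 (SE 0.213) lay just outside the threshold (edgeR adjusted p 0.0533), and the gene was called without L1L2-FF replicate 3 (log2 fold change -0.92, adjusted p 0.0154), without a filter on low counts (-0.72, adjusted p 0.0348) and by DESeq2 (-0.72, adjusted p 0.0144). Rtl1, also paternally expressed, was near 1 CPM in both genotypes, with a log2 fold change of 0.15 (edgeR adjusted p 0.80).

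The balance of Meg3 to Dlk1 within a library did not overlap between the genotypes. The ratio of Meg3 counts to Dlk1 counts was 0.723, 0.981 and 0.886 in L1L2-FF and 2.92, 4.68 and 7.08 in L1L2-AKO. These ratios are not per length, and since the exons of Meg3 are longer than those of Dlk1 they do not say which RNA was the more abundant. The log2 ratio differed by 2.42 between the genotypes, a 5.36-fold change of the ratio. Its two-sided p in an exact permutation test was 0.1, the smallest that 3 against 3 libraries allow, and 0.2 after adjustment over the 8 ratios computed. The fitted rise of Rian was smaller than that of Meg3. Rian counts were 1.09, 0.805 and 1.01 times those of Meg3 in L1L2-FF and 0.698, 0.645 and 0.566 times in L1L2-AKO, without overlap (log2 difference -0.60, exact permutation p 0.1, adjusted 0.2).

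**Figure D2:**
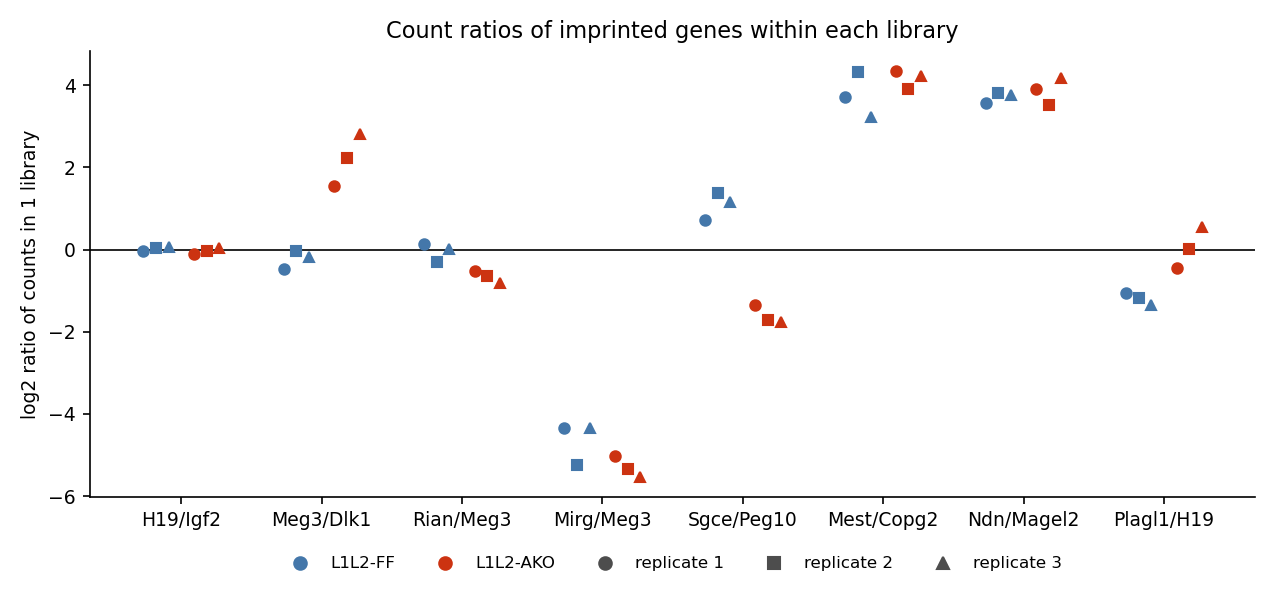
Log2 ratio of the counts of a pair of imprinted genes within each library (vertical axis), for 8 pairs, with L1L2-FF in blue, libraries labelled L1L2-AKO in red and replicates by shape. H19/Igf2 sits near 0 in all 6 libraries, Meg3/Dlk1 is below 0 in L1L2-FF and above 1 in L1L2-AKO, and Sgce/Peg10 is above 0 in L1L2-FF and below -1 in L1L2-AKO.

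Grb10, an adaptor that dampens signalling from the insulin and IGF receptors, was the remaining maternally expressed gene. Its level was 248, 195 and 205 CPM in L1L2-FF and 216, 183 and 173 CPM in L1L2-AKO. The genotypes overlapped, with L1L2-AKO replicate 1 above 2 of the L1L2-FF libraries. The log2 fold change was -0.18 (SE 0.145, 95% CI -0.52 to 0.15, edgeR adjusted p 0.451), an interval that leaves out a 2-fold change in either direction.

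Plagl1 encodes a zinc finger transcription factor that binds near several other imprinted genes and slows the cell cycle. It had 343, 259 and 204 CPM in L1L2-FF and 361, 398 and 562 CPM in L1L2-AKO. The lowest L1L2-AKO library was only just above the highest L1L2-FF library. Its log2 fold change was 0.71 (SE 0.235, 95% CI 0.17 to 1.25, n = 3 per genotype; edgeR adjusted p 0.0768), and DESeq2 called it at an adjusted p of 0.0204. Plagl1 and H19 lie on different chromosomes, and their fitted changes had opposite signs. Plagl1 counts were 0.483, 0.441 and 0.395 times those of H19 in L1L2-FF and 0.733, 1.02 and 1.46 times in L1L2-AKO, without overlap (log2 difference 1.23, exact permutation p 0.1, adjusted 0.2).

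Peg3, a zinc finger protein gene at chr7:6703892-6730431, had 459, 806 and 244 CPM in L1L2-FF, where L1L2-FF replicate 2 was 3.30 times replicate 3. The L1L2-AKO libraries were closer to each other, at 725, 743 and 949.5 CPM. L1L2-FF replicate 2 lay inside the L1L2-AKO range. With all libraries the log2 fold change was 0.68 (SE 0.377, 95% CI -0.19 to 1.55, edgeR adjusted p 0.272). Without L1L2-FF replicate 2 it was 1.19 with an adjusted p of 0.0245, so this 1 library decides the call.

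Mest, an enzyme gene of the alpha/beta hydrolase family that is known as a marker of fat pad expansion, was the most abundant of the 10. Its level was 1532, 3076 and 1020 CPM in L1L2-FF and 2662, 1461 and 2391 CPM in L1L2-AKO. The L1L2-FF libraries alone covered the whole L1L2-AKO range. The log2 fold change was 0.21 (SE 0.406, 95% CI -0.72 to 1.15, edgeR adjusted p 0.779) and -0.09 without L1L2-FF replicate 3. The interval runs from 0.61 to 2.21 times the L1L2-FF level, and changes within it are not excluded. The last exons of Mest and those of Copg2 overlap on opposite strands, over 23.1% of the Mest exon length. Mest counts were 9.38 to 20.01 times those of Copg2 in L1L2-FF and 15.1 to 20.3 times in L1L2-AKO.

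Ndn, a single-exon gene whose product represses growth and fat cell formation, varied less within L1L2-AKO than within L1L2-FF. It had 113, 90.7 and 132 CPM in L1L2-FF and 132, 124 and 137 CPM in L1L2-AKO, with overlap between the genotypes (log2 fold change 0.23, SE 0.149, 95% CI -0.11 to 0.57, edgeR adjusted p 0.352). Its neighbour Magel2, of the same protein family, was at 8.53 ± 1.85 and 9.05 ± 1.58 CPM (SD, n = 3 per genotype; log2 fold change 0.09, edgeR adjusted p 0.836).

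Sgce and Peg10 start 99 bases apart on opposite strands and are both read from the paternal copy. Sgce, which encodes epsilon-sarcoglycan, had 85.3, 81.6 and 74.5 CPM in L1L2-FF and 79.0, 104 and 114 CPM in L1L2-AKO. L1L2-AKO replicate 1 was within the L1L2-FF range, and the log2 fold change of 0.29 (SE 0.150, 95% CI -0.05 to 0.64) did not pass the test (edgeR adjusted p 0.229).

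Peg10, derived from a retrotransposon and needed in the placenta, had 52.0, 31.1 and 33.6 CPM in L1L2-FF and 203, 343 and 387 CPM in L1L2-AKO. Every L1L2-AKO library was above every L1L2-FF library. The log2 fold change was 3.00 (SE 0.296, 95% CI 2.32 to 3.68, edgeR adjusted p 0.000785), a larger fitted value than for any of the 10 genes. Peg10 is not one of the 10 and is named as the neighbour of Sgce. Sgce counts were 1.64, 2.62 and 2.22 times those of Peg10 in L1L2-FF and 0.389, 0.303 and 0.294 times in L1L2-AKO, without overlap and, as above, not per length. The log2 ratio differed by -2.70 (exact permutation p 0.1, the smallest possible, adjusted 0.2).

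Pon3, a lactonase gene further along the Sgce cluster, went the other way. It fell from 84.1 ± 8.78 to 31.4 ± 2.90 CPM (SD, n = 3 per genotype; log2 fold change -1.42, SE 0.126, edgeR adjusted p 0.000531).

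**Figure D3:**
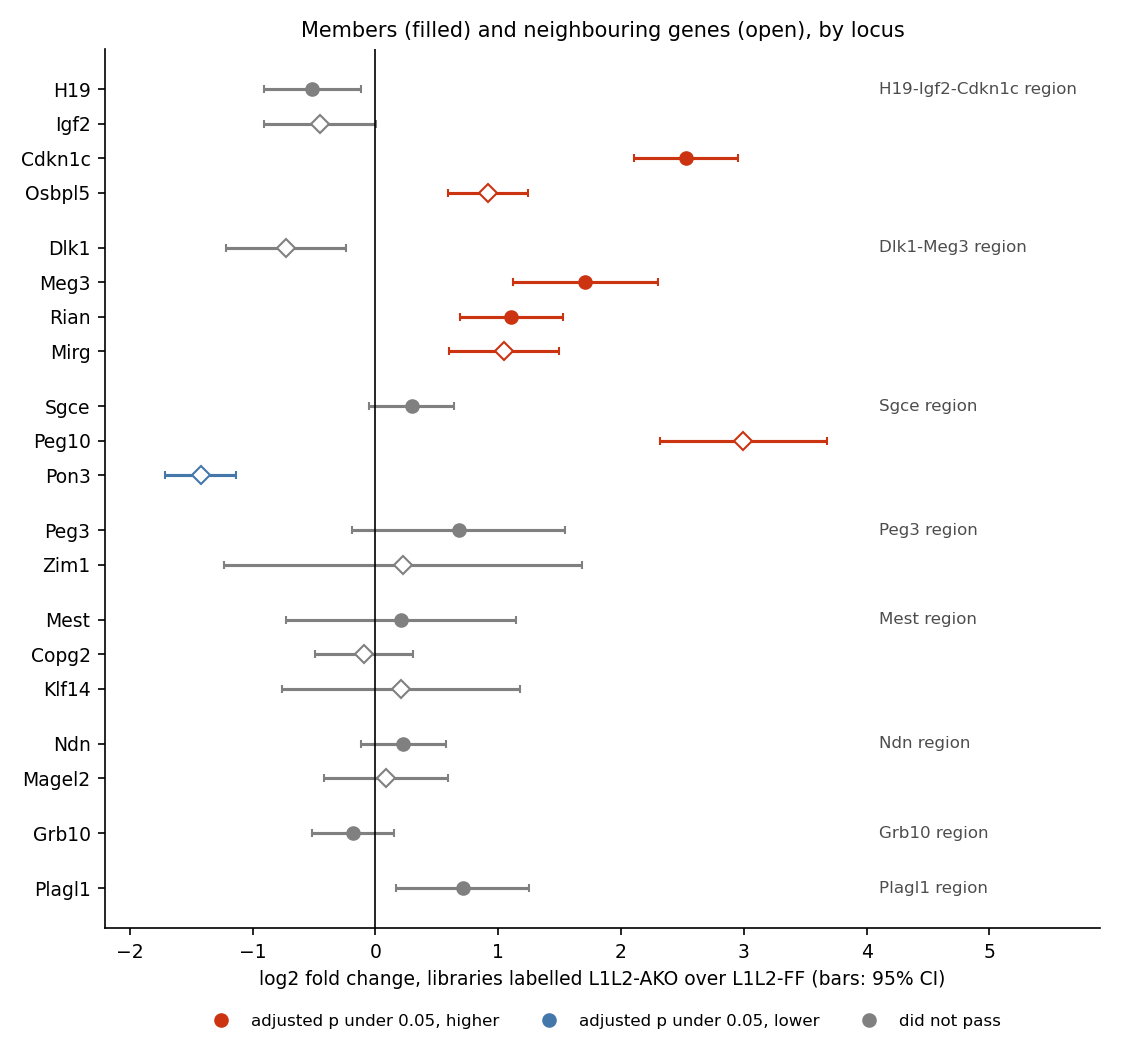
Log2 fold change of libraries labelled L1L2-AKO over L1L2-FF (horizontal axis) with its 95% confidence interval (bars). The 10 genes are filled circles and listed neighbouring genes are open diamonds, grouped by locus. Red marks genes higher and blue genes lower at an edgeR adjusted p under 0.05. Meg3, Rian and Mirg lie between 1.05 and 1.71 while Dlk1 lies at -0.73, and Peg10 lies at 3.00 beside Sgce at 0.29.

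Among 54 other imprinted genes in the table, 46 had enough counts, with fitted changes above 0 for 22 and below 0 for 24. Of these, 4 were higher (Peg10, Mirg, Osbpl5 and Slc38a4), 2 were lower (Pon3 and Nap1l5) and 40 were not called, beside 9.28% higher and 7.18% lower among all genes. Their median log2 fold change was -0.03. A subset of 28 were neighbours of the 10 genes in the same clusters, with 3 higher and 1 lower. The list was not limited to genes known to be imprinted in fat. The counts cannot show whether each listed gene is imprinted in adipocytes.

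The spread within L1L2-FF was wide for Mest and Peg3 only, among the 10. The highest library was 3.02 times the lowest for Mest and 3.30 times for Peg3, and no other gene of the 10 passed 2 times. A ratio above 3 was found in 6.51% of all tested genes, and the median was 1.365. Zim1, next to Peg3, had 23.8, 92.6 and 11.3 CPM in L1L2-FF and 43.6, 46.5 and 59.3 CPM in L1L2-AKO. Klf14, near Mest, had 12.1, 26.7 and 6.99 CPM and then 15.6, 16.4 and 21.1 CPM, and Nnat, on another chromosome, had 1077, 2029 and 644.5 CPM and then 871, 1366 and 1978 CPM. In Peg3, Mest, Zim1, Klf14 and Nnat L1L2-FF replicate 2 was the highest and replicate 3 the lowest, an order that 26.1% of all tested genes had. The other 2 genes of the imprinted list whose L1L2-FF libraries differed by more than 3 times ran the other way. They had replicate 3 the highest and replicate 2 the lowest. Dhcr7 had 30.3, 17.9 and 60.2 CPM and Atp10a had 15.0, 9.28 and 35.3 CPM in L1L2-FF, and 25.5% of all tested genes had that order. The same replicate 2 had the highest Schwann cell marker sum and the lowest proliferation sum of the 6 libraries. It also had the highest skeletal muscle (21.9 CPM) and red cell (2936 CPM) marker sums of the 6. Mural (vessel wall) and mature adipocyte sums were highest there too, by a small margin (1590 and 13590 CPM). Within L1L2-FF it had the highest macrophage (497 CPM) and lymphocyte (47.4 CPM) sums, but not the highest endothelial or progenitor sum. Their part in these values was not tested.

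**Figure D4:**
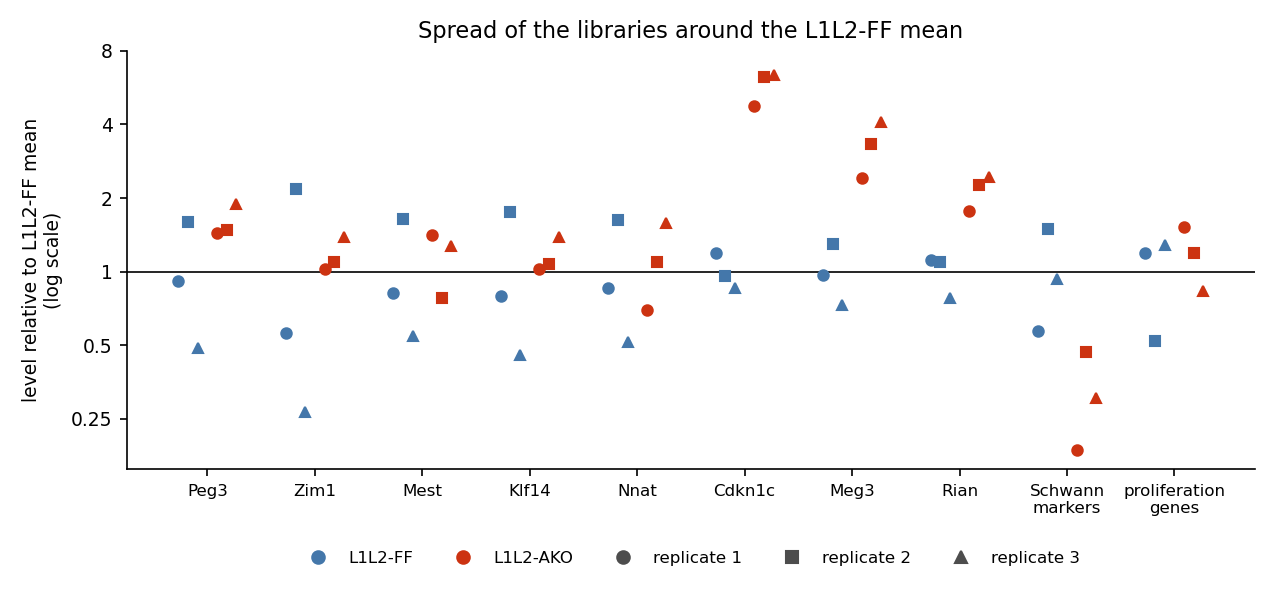
Level of each gene or marker list relative to its L1L2-FF mean (vertical axis, log scale) in each library, with L1L2-FF in blue, libraries labelled L1L2-AKO in red and replicates by shape. Peg3, Zim1, Mest, Klf14 and Nnat are highest in L1L2-FF replicate 2 and lowest in L1L2-FF replicate 3 among the L1L2-FF libraries, while Cdkn1c, Meg3 and Rian separate the genotypes. Dhcr7 and Atp10a, which had the opposite order in L1L2-FF, are not drawn.

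Within L1L2-AKO, 6 of the 10 genes (Cdkn1c, Meg3, Rian, Peg3, Plagl1 and Sgce) were highest in replicate 3 and lowest in replicate 1, an order that 23.6% of all tested genes had. H19 and Grb10 had the opposite order. Among markers of other cells, all 10 macrophage markers rose and 4 of 6 Schwann cell markers fell. Of 8 endothelial markers 1 fell, and their sums overlapped (1791 to 2387 CPM in L1L2-FF, 1056 to 2282 CPM in L1L2-AKO). Of 6 mural markers 1 rose and 2 fell, with sums of 1304 to 1590 and 1246 to 1338 CPM. Of 5 red cell markers 0 were called, and of 6 lymphocyte markers 1 rose (Ptprc). The part of these cells in the rise of Cdkn1c, Meg3 and Rian was not tested. Markers of progenitors, which express several of these genes, summed to 511 to 679 CPM in L1L2-FF and 502 to 617 CPM in L1L2-AKO, and 2 of 10 fell (Pi16 and Cd55) while 0 rose; at an unadjusted p under 0.05 in edgeR 4 were lower and 1 was higher, and DESeq2 called 2 lower and 0 higher. The fitted change was below 0 for 8 of the 10. Muscle, where H19, Meg3 and Mest are abundant in the newborn, was represented at a low level. Its 10 markers summed to 12.4 to 21.9 CPM in L1L2-FF and to 3.24 to 10.3 CPM in L1L2-AKO. Of 6 muscle markers tested, edgeR called 0, and 3 were lower at an unadjusted p under 0.05 and with DESeq2. The 6 markers of muscle progenitors stayed under 2 CPM in sum in every library, with Pax7 and Myf5 at 0 counts in all L1L2-AKO libraries. Only 1 of these 6, Chodl, had enough counts to be tested, and it fell from 1.11 to 0.288 CPM (log2 fold change -1.93, SE 0.380, edgeR adjusted p 0.012).

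Levels of different genes were compared per kilobase of exon, as CPM per kb. In L1L2-FF the order was Mest (476), H19 (246), Cdkn1c (39.0), Peg3 (37.8), Plagl1 (34.4), Ndn (30.3), Grb10 (23.8), Sgce (7.58), Meg3 (6.44) and Rian (6.07). Neighbours in that order had overlapping libraries except at 2 steps, between H19 and Cdkn1c and between Grb10 and Sgce. In L1L2-AKO the order was Mest (550.4), Cdkn1c (226), H19 (172), Peg3 (60.5), Plagl1 (56.3), Ndn (35.4), Meg3 (21.1), Grb10 (20.96), Rian (13.1) and Sgce (9.30). Cdkn1c came to overlap H19, and the libraries of Meg3 overlapped those of Grb10. In L1L2-FF, Mest was above 99.6% of the 15485 tested genes with a length. The exons of all isoforms together are long for Meg3 (18089 bases) and Rian (18234 bases), which lowers their values on this scale.

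Igf2, Igf2r and Grb10 act on insulin-like growth factor signalling, so 16 genes of that pathway are given beside the imprinted ones. Of these, 5 rose (Igf1r, Igfbp2, Igfbp3, Igfbp4 and Igf2bp1), 3 fell (Igf1, Igfbp6 and Igfbp7) and 8 were not called, beside 9.28% higher and 7.18% lower among all tested genes. Igf1, the ligand of postnatal growth, fell from 581 ± 9.0 to 293 ± 37.2 CPM (SD, n = 3 per genotype; log2 fold change -0.99, SE 0.139, edgeR adjusted p 0.00306). Igf1r, its receptor, rose from 9.40 ± 2.53 to 16.5 ± 0.463 CPM (log2 fold change 0.81, SE 0.205, edgeR adjusted p 0.0315). Igfbp2, a secreted binding protein, rose from 0.306 ± 0.0977 to 19.3 ± 7.80 CPM (log2 fold change 5.96, SE 0.437, edgeR adjusted p 0.000316). Igfbp3, of the same family, had 25.0, 43.4 and 26.8 CPM in L1L2-FF and 173, 619.7 and 619 CPM in L1L2-AKO, where replicate 1 was well below the other 2 libraries but above all of L1L2-FF (log2 fold change 3.89, SE 0.502, edgeR adjusted p 0.00220). Igf2r, the maternally expressed receptor that removes the Igf2 product, was at 196 ± 22.2 and 166 ± 31.2 CPM (log2 fold change -0.24, edgeR adjusted p 0.367).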

How the data were processed

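Counts per gene were analysed for 6 libraries of floated scWAT adipocytes, 3 of L1L2-FF and 3 of L1L2-AKO, grouped by the submitters' labels. The authors sequenced paired ends on a BGISEQ-500 and, per the labels and the study's methods, aligned them to mm10 with HISAT2 (2.1.0) and used StringTie (1.3.5). The deposited table holds whole-number counts for each symbol, without normalization. The counting program, its strand setting and the annotation are not given in the sources used here.

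Genes were filtered with filterByExpr (minimum count 10), which left out 21710 symbols, scaled by TMM and compared with edgeR 4.0.16 (quasi-likelihood test, two-sided, Benjamini-Hochberg adjustment over 15674 genes, threshold 0.05) in R 4.3.3. Intervals are 95% intervals of the fit. Ratios of neighbouring genes used counts plus 0.5 and an exact permutation test over libraries. A further 3 ratios had a gene with too few counts or no row and were not computed. Alternatives were DESeq2 1.42.0, limma-voom 3.58.1, other scalings and filters, a replicate block and leaving out each library. Positions are from GENCODE M21, in which 36888 symbols and all 10 genes were found, and sequences from RefSeq. Scripts were tested on simulated data. No label says that libraries come from separate litters beyond the pools, so p-values measure the spread between pools. The members and gene lists were chosen with earlier results of these data known. Named genes were the 10, Lats1, Lats2, listed imprinted neighbours, overlapping genes and members of the marker and pathway lists.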

Additional observations from a re-analysis of the deposited data

How the results depend on the processing

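The main comparison called 2580 genes. Other settings gave 2413 to 3500 calls (DESeq2 3500, replicate block 2514), 1366 with an added threshold of a 2-fold change, and 1281 to 2845 with each library left out, with the lowest counts for fits lacking L1L2-FF replicate 1 (1290), L1L2-AKO replicate 2 (1281) or L1L2-AKO replicate 3 (1374). Cdkn1c, Meg3 and Rian were called in each of the 16 alternatives, and their log2 fold changes without 1 library ranged from 2.42 to 2.67, 1.52 to 1.94 and 0.96 to 1.23. DESeq2 called 5 of the 10 genes and 12 other imprinted genes in place of 3 and 6; leaving out a library gave 3 to 4 and 4 to 9. Fitted values changed sign without 1 library for genes that were not called: Mest ranged from -0.088 to 0.77, Zim1 from -0.23 to 1.5 (called without L1L2-FF replicate 2, adjusted p 0.0145), Klf14 from -0.14 to 0.89, Copg2 from -0.19 to 0.071, Magel2 from -0.084 to 0.20 and the ratio of Ndn to Magel2 from -0.0030 to 0.32. Nap1l5 lost its call with limma-voom and in 4 of 6 fits without a library. The cause was not tested. The labels do not say whether replicate numbers pair the libraries. Deviations of same-numbered libraries correlated at 0.188, 0.255 and -0.0544, and those of differently numbered libraries at -0.324 to 0.211. With 3 libraries per genotype these values do not decide it. The replicate block kept the same 3 of the 10 genes. It called 9 other imprinted genes (5 higher, 4 lower) in place of 6, Dlk1 among them (edgeR adjusted p 0.0150). With 3 libraries per genotype, differences near the spread of Mest or Peg3 cannot be resolved.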

Other observations

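Outside the clusters of the 10 genes, 18 genes of the imprinted list were tested. Slc38a4, an amino acid transporter gene read from the paternal copy, rose from 9.77 ± 1.34 to 14.7 ± 1.53 CPM (SD, n = 3 per genotype; log2 fold change 0.59, SE 0.162, edgeR adjusted p 0.0431). Nap1l5 fell from 3.01 ± 1.34 to 1.12 ± 0.278 CPM (log2 fold change -1.43, SE 0.381, edgeR adjusted p 0.0386), a call that was lost with limma-voom (-1.36, adjusted p 0.0559) and without L1L2-FF replicate 3 (-1.02, 0.0879) or L1L2-AKO replicate 1 (-1.30, 0.104), 2 (-1.37, 0.133) or 3 (-1.64, 0.0714). Dcn, which encodes the matrix proteoglycan decorin, had 220, 279 and 149 CPM in L1L2-FF and 139.6, 137 and 119 CPM in L1L2-AKO without overlap, and did not pass the test (log2 fold change -0.72, SE 0.216, edgeR adjusted p 0.0578). Nnat, among the most abundant of them, was at 1250 ± 708 and 1405 ± 555 CPM (log2 fold change 0.17, edgeR adjusted p 0.837).

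RefSeq places 6 miRNA hairpins in the 10 genes, and each had its own row. Mir335, within Mest, had 20, 83 and 2 counts in L1L2-FF and 28, 12 and 27 counts in L1L2-AKO. These counts were highest in the libraries with the most Mest of each genotype and lowest in those with the least. The hairpin shares no annotated exon base with Mest, and the source of these reads was not tested. Mir1188 had at most 2 counts and the other 4 hairpins had 0 in all 6 libraries. GENCODE M21 also lists the miRNA genes Mir1906-1 in Meg3, with 0 counts, and Gm23912 in Rian, with 6 counts over the 6 libraries together.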
